A study of Mus musculus with 4 samples.

Results

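The genes described here are 7 genes of sterol synthesis and its control, read in 4 cerebellar tumors of mice with the genotype Chd7-het. They were chosen by name, as every probe set that the platform annotation gives a single symbol among Hmgcs1, Sqle, Fdft1, Dhcr7, Cyp51, Insig1 and Srebf2. On the Affymetrix array that was used, a probe set is a group of short oligonucleotides that together read a transcript. The 7 genes together had 14 of the 24679 probe sets that name exactly 1 gene. Although the set is named for synthesis and uptake, none of the 7 is an uptake receptor: 5 encode enzymes and 2 encode regulators.

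The samples were total RNA of 4 tumors, numbered 1, 2, 4 and 5 by the labels and hybridised once each. All carried the genotype Chd7-het on a mixed CD1xC57BL/6 background. Chd7 encodes a chromatin remodelling ATPase. The labels give no normal cerebellum, no tumor of another genotype, no treatment, no age and nothing on what started the tumors, so each tumor could only be set against the other 3. Such a test asks whether a tumor lies outside the spread of the rest, and the lone tumor is assumed to vary like them.

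Cells make cholesterol from acetyl-CoA through HMG-CoA, mevalonate, farnesyl pyrophosphate and squalene, and then from lanosterol through a chain of sterol intermediates. When membrane sterol is low, the escort protein SCAP takes the transcription factor SREBP2 to the Golgi, where proteases release its active part and the synthesis genes are induced. INSIG proteins hold the SCAP and SREBP complex back when sterol is plentiful. In Hedgehog signalling, which drives the division of cerebellar granule cell progenitors, the receptor protein Smoothened is itself bound and activated by sterols.

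The promoters of the genes are shown first, since the genes share a regulator that binds there. RefSeq windows of 300 bases (GRCm38.p6, 250 before and 50 after a transcript start) were given for 5 of the 7 genes, 7 windows in all because Dhcr7 has several starts. Sqle and Fdft1 had none. The 4 printed below are those of the regulator genes Srebf2 and Insig1 and of Hmgcs1 and Cyp51, an early and a later enzyme gene. Capitals mark, on either strand, CACNCCAC (a core of the sterol response element), CCAAT (the box bound by NF-Y) and GGGCGG (the box bound by Sp1). Hmgcs1 lies at chr13:119690101-119690400 on the plus strand, Insig1 at chr5:28071162-28071461 on the plus strand, Cyp51 at chr5:4104648-4104947 on the minus strand and Srebf2 at chr15:82147019-82147318 on the plus strand.
Hmgcs1: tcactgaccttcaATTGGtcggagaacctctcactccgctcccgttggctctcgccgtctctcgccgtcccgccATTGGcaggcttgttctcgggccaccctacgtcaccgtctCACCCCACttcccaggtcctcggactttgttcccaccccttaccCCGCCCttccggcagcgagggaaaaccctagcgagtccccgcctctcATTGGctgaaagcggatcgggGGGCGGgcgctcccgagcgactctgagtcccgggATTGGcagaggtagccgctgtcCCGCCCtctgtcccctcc
Insig1: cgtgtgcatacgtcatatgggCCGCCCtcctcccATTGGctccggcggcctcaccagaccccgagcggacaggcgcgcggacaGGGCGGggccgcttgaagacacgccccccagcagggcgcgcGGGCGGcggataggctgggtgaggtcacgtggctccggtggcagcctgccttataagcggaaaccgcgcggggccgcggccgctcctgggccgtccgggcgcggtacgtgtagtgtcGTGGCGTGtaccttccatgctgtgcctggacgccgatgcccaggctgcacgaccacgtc
Cyp51: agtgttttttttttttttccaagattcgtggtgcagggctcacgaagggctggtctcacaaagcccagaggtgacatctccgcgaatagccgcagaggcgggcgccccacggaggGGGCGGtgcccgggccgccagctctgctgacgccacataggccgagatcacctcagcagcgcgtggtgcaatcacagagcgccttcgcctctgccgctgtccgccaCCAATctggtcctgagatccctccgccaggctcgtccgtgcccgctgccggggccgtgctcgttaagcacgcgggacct
Srebf2: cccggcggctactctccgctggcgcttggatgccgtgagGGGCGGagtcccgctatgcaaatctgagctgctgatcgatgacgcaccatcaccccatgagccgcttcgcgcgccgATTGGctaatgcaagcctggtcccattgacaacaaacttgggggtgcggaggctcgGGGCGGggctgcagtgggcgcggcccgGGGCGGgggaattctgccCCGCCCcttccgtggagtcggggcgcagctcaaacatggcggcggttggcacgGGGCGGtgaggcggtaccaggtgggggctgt

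The Hmgcs1 and Insig1 windows each held CACNCCAC, and the windows of Cyp51, Srebf2 and Dhcr7 did not. Among all 32851 windows of the table, 6.2% held it. CCAAT was found in 5 of the 7 windows, at least 1 for each of the 5 genes, against 37.4% of all windows, and 4 times in the Hmgcs1 window alone. GGGCGG was found in 6 of 7 windows, against 35.7% of all. The E-box letters CANNTG, which are not capitalised, were found in 6 of 7, against 72.3%. Matches of different motifs were counted separately, also where they could overlap. The windows of the 5 genes had a GC content between 48.7% and 71.7%. A match is only a run of letters in this window. Forms of the sterol response element with letters other than CACNCCAC were not searched for, so a window without a match may still hold one.

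Signal was measured for all 7 genes in all 4 tumors. In such bulk RNA, fewer cells of a type cannot be told apart from less RNA per cell. Levels are log2 signals, and a floor of 5.12 (34.9 linear), below which signals were treated as noise, was applied before any difference was taken. Of the 14 probe sets, 12 passed the filter on the mean over the tumors, 5.88 on the log2 scale, and these 12 lay above the floor in every tumor. The other 2 were not tested. The Hmgcs1 probe set 1441536_at lay below the floor in every tumor, between 1.68 and 3.51, and the second Srebf2 probe set, 1452174_at, lay just under the filter with 5.53, 5.27, 5.26 and 5.10 in tumors 1, 2, 4 and 5, above the floor in 3 of them.

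**Figure D1:**
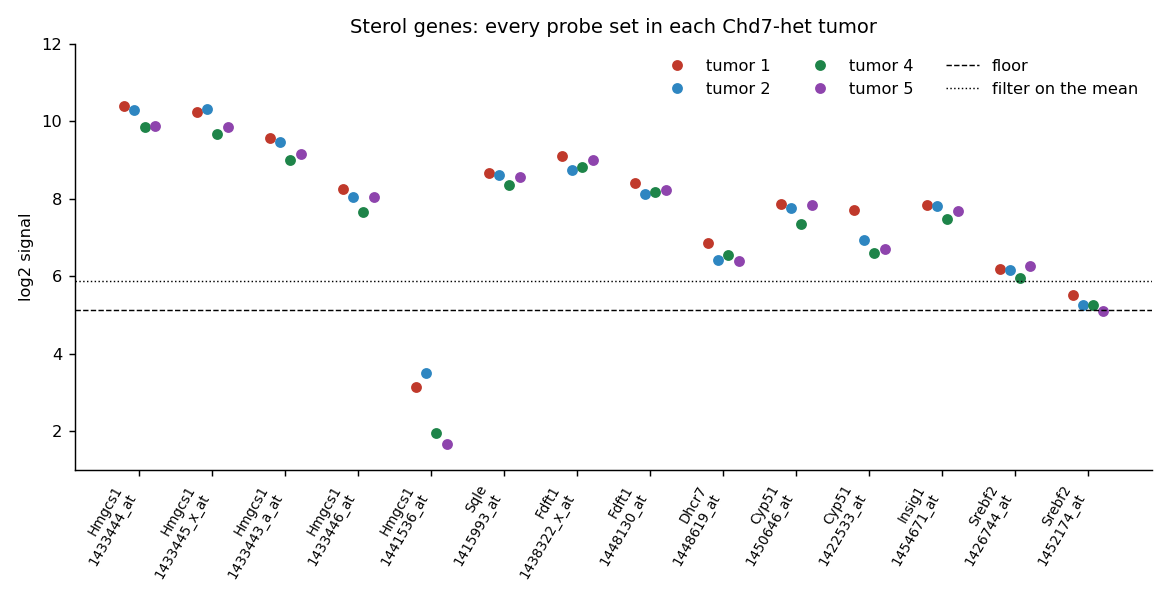
Log2 signal of each of the 14 probe sets of the 7 sterol genes, 1 point per tumor. The dashed line is the floor at 5.12 and the dotted line the filter at 5.88. Tumor 1 was the highest of the 4 in 10 of the 12 probe sets above the filter, against 23.7% of all probe sets. Tumor 4 was the lowest in 9, against 18.5% of all.

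Hmgcs1 encodes the cytosolic HMG-CoA synthase, which makes HMG-CoA. Its brightest probe set, 1433444_at, read 10.39, 10.30, 9.85 and 9.88 in tumors 1, 2, 4 and 5. Tumors 1 and 2 read above tumors 4 and 5, a split that was taken from these same values. The probe sets 1433445_x_at (10.25, 10.31, 9.67 and 9.86 in tumors 1, 2, 4 and 5) and 1433443_a_at (9.57, 9.47, 9.01 and 9.15) likewise had tumors 1 and 2 above tumors 4 and 5. The fourth, 1433446_at, read 8.24, 8.04, 7.66 and 8.05, so that tumor 5 lay beside tumor 2 and tumor 4 alone was low. All 4 gave tumor 4 as the lowest, 0.34 to 0.47 below the mean of the other 3 on the log2 scale. These probe sets read the same gene and are not separate evidence.

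Fdft1 encodes squalene synthase, the first enzyme committed to sterols. Its brighter probe set, 1438322_x_at, read 9.12, 8.75, 8.82 and 9.01 in tumors 1, 2, 4 and 5, and the other, 1448130_at, 8.41, 8.13, 8.17 and 8.22. In both, tumor 1 was highest and tumor 2 lowest. Sqle encodes squalene epoxidase, a later rate-controlling enzyme. It read 8.66, 8.61, 8.36 and 8.58, with tumors 1, 2 and 5 within 0.08 of each other and tumor 4 below them.

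Cyp51 encodes the lanosterol demethylase, the first enzyme after the sterol ring is closed. Its probe set 1450646_at read 7.87, 7.76, 7.36 and 7.84 in tumors 1, 2, 4 and 5, so that tumor 4 alone stood low. Its other probe set, 1422533_at, read 7.71, 6.95, 6.60 and 6.71, so that tumor 1 alone stood high. Both put tumor 1 highest and tumor 4 lowest, but they differed in the size of the step at tumor 1, which was 0.96 above the mean of the other 3 in 1422533_at and 0.21 in 1450646_at. Dhcr7 encodes the reductase of the last step to cholesterol, whose loss in humans causes Smith-Lemli-Opitz syndrome. It read 6.85, 6.41, 6.56 and 6.40, high in tumor 1, and here tumor 4 was not the lowest.

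Of the regulators, Insig1 is itself a target of SREBP2 and acts as its brake. It read 7.84, 7.81, 7.49 and 7.70 in tumors 1, 2, 4 and 5, lowest in tumor 4. Srebf2, which encodes SREBP2, read 6.18, 6.16, 5.95 and 6.27 in its brighter probe set, close to the filter. Tumor 4 was lowest there too, and tumor 5 rather than tumor 1 was highest. Over the brightest probe set of each gene, the SD across the tumors ran between 0.13 and 0.28 and had a median of 0.17, beside 0.17 over all 8488 genes tested. Over all 12 probe sets the median SD was 0.22, beside 0.17 over all probe sets tested. The highest tumor exceeded the lowest by a factor of 1.21 to 1.56 in 11 of the 12 probe sets, and by a factor of 2.16 in 1422533_at of Cyp51.

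**Figure D2:**
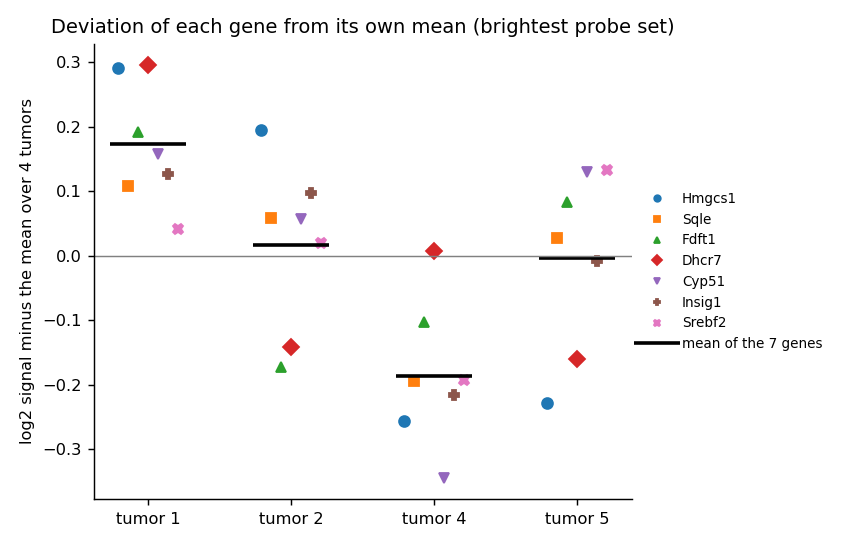
Log2 signal of each gene's brightest probe set minus that gene's mean over the 4 tumors, with the mean of the 7 genes as a black bar. All 7 genes lie above their mean in tumor 1, as do 43.7% of all genes. In tumor 4, 6 of 7 lie below it and 1 above, where 50.8% of all genes lie above. Tumors 2 and 5 have genes on both sides.

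Each tumor was then set against the other 3 with limma over 13510 probe sets, and a probe set passed at an adjusted p under 0.05 and a difference of at least 2-fold. In tumor 1, 0 of the 12 probe sets of the 7 genes passed, against 0.881% of all probe sets. In tumors 2, 4 and 5, 0 of 12 passed, against 0% of all in each. At an unadjusted p under 0.05, 1 of the 12 differed in tumor 1, against 1468 of all 13510 (10.87%). That probe set was 1422533_at of Cyp51, 7.71 in tumor 1 and 6.76 ± 0.18 over tumors 2, 4 and 5 (SD, n = 3), or 1.94-fold (log2 difference 0.96, SE 0.22, limma adjusted p = 0.115). In tumors 2, 4 and 5, 0 of 12 had an unadjusted p under 0.05, against 851, 83 and 480 of all. Without tumor 2 the difference of the Cyp51 probe set in tumor 1 was 1.05, just over 2-fold. Without tumor 5 it was 0.93 and without tumor 4 it was 0.88, both under 2-fold. Under other settings that kept this probe set the difference ran between 0.92 and 0.96. With all 4 tumors, the adjusted p of the other 11 probe sets was at least 0.569 in tumor 1, and that of all 12 was at least 0.79 in each of the other tumors. For Hmgcs1 the differences depended on which tumors were compared. The 4 tested probe sets were 0.31 to 0.39 higher in tumor 1 than in the other 3. With tumor 2 left out they were 0.39 to 0.53 higher in tumor 1 than in tumors 4 and 5. With tumor 1 left out they were 0.19 to 0.55 higher in tumor 2 than in tumors 4 and 5. All stayed under 2-fold.

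By rank alone, tumor 1 was the highest of the 4 in 10 of 12 probe sets, where 23.7% of all probe sets were highest. Tumors 2 and 5 were highest in 1 each (28.2% and 29.5% of all) and tumor 4 in 0 (18.4%). Tumor 4 was the lowest in 9 of 12, where 18.5% of all probe sets were lowest, tumor 2 in 2 (26.8%), tumor 5 in 1 (23.6%) and tumor 1 in 0 (30.9%). Since 4 of the 12 probe sets read Hmgcs1, the count by gene, each by its brightest probe set, is the plainer one. Tumor 1 was highest in 6 of 7 genes, all but Srebf2, against 23.4% of all genes. Tumor 4 was lowest in 5 of 7, all but Fdft1 and Dhcr7, against 17.3% of all genes. Tumor 1 was the only one in which any probe set of the array passed (119), and with it left out tumor 4 was still below tumors 2 and 5 in 9 of 12, against 27.5% of all probe sets. These ranks carry no p, and the differences behind them were small.

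Across the 7 genes the mean difference on the log2 scale was 0.23 for tumor 1 minus the other 3, 0.02 for tumor 2, -0.25 for tumor 4 and -0.0042 for tumor 5. The medians were 0.21, 0.08, -0.26 and 0.04, beside medians over all 8488 genes of -0.04, -0.02, 0.0036 and 0.04. Tumors 1 and 4 were the farthest apart, with all 7 genes higher in tumor 1 and a median difference of 0.30. Of the other pairs, all 7 genes were higher in tumor 1 than in tumor 2 and 6 of 7 higher than in tumor 5, with medians of 0.10 and 0.11. Against tumor 4, 5 of 7 were higher in tumor 2 (median 0.25), and 1 of 7 was higher in tumor 4 than in tumor 5 (median of tumor 4 minus tumor 5 -0.21). Between tumors 2 and 5 the median was 0.02. Probe sets of like signal (a mean within 0.5 of that of each of the 12) had medians between -0.09 and 0.02 in tumor 1 and between -0.06 and 0.10 in tumor 4. For the low-signal Dhcr7, Srebf2 and 1422533_at of Cyp51 these medians had the same sign as the 7 genes' mean difference in both tumors, up to 0.02 in tumor 1 and down to -0.06 in tumor 4.

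The labelled tissue was checked by granule cell progenitor markers, of which all 6 exceeded the floor in every tumor, with a summed linear signal between 8230 and 9140. In tumor 1 the 10 measured oligodendrocyte and myelin markers, whose cells make much cholesterol, were all above the floor and summed to 5835, against 5 to 7 above it and sums between 2145 and 2800 in the others. Within this list the 7 myelin genes, among them Mbp and Mog, were highest in tumor 1, while the lineage genes Olig1, Olig2 and Sox10 were lowest there, with Olig2 at 7.49 against 8.01 to 8.27. The 7 mature neuron markers summed to 6193 in tumor 1, against 2709 to 2978, the 6 of Purkinje and inhibitory neurons to 3347, against 207 to 436.1, and the 8 of astrocytes and Bergmann glia, the other main sterol makers of brain, to 4716, against 3629 to 3926. The astrocyte and Bergmann glia list was divided. Aldh1l1, Gdf10, Gjb6, S100b and Slc1a3 were highest in tumor 1, while Aqp4 and Slc1a2 were neither highest nor lowest there. Gfap was lowest in tumor 1, at 6.55 against 7.40 to 7.69. The 5 proliferation markers summed to 5382 in tumor 1, against 7319 to 7718. In tumor 4 the 7 microglia and macrophage markers summed to 4332, against 2296 to 3241, beside its low sterol genes. Of 4 endothelial markers 3 (Cdh5, Flt1 and Tek) lay below the floor in all tumors, with sums between 133.6 in tumor 4 and 215.5 in tumor 1, and the 5 choroid plexus markers summed to 5747 in tumor 5, against 719.6 to 1171. Of the choroid plexus markers, Ttr, Folr1 and Kl were highest in tumor 5, Clic6 in tumor 1 and Otx2 in tumor 2. The part of any of these cell types in the differences of the sterol genes was not tested.

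The other enzymes of the pathway were read from a list of 16 genes, of which 13 had a probe set and 11 passed the filter. In each tumor 0 of the 11 passed the limma test. Of their 14 probe sets, the largest differences in tumor 1 were 0.60 in 1448663_s_at of Mvd and 0.55 in 1434520_at of Sc5d. In tumor 1, 8 of the 11 lay above the mean of the other 3, as did 43.7% of all genes, with a median of 0.22. In tumor 4, 9 of 11 lay below it and 2 above, where 50.8% of all genes lay above, with a median of -0.12. In tumors 2 and 5 the medians were -0.03 and 0.16. Msmo1, a sterol methyl oxidase that acts later than Cyp51, read 7.83, 7.61, 7.23 and 7.72 in tumors 1, 2, 4 and 5. This was the same order of the tumors as in 1450646_at of Cyp51. Idi1, the isomerase of isopentenyl pyrophosphate, read 8.39, 8.77, 8.15 and 8.68, lowest in tumor 4 (difference -0.46, limma adjusted p = 1). Lss, the cyclase that makes lanosterol, read 6.25, 6.07, 5.86 and 5.62, and Mvd, the mevalonate pyrophosphate decarboxylase, 6.93, 6.34, 6.63 and 6.89. Tumor 5 was lowest for Lss and tumor 2 for Mvd, although the other Mvd probe set, 1448663_s_at, had tumors 4 and 2 close together, at 6.43 and 6.44.

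**Figure D3:**
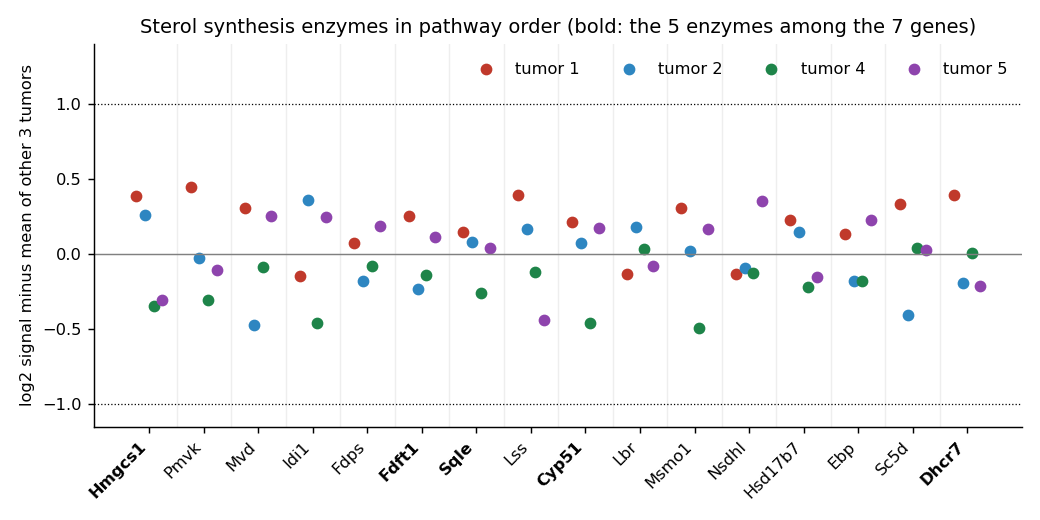
Difference of each tumor from the mean of the other 3 (log2 signal) for the 16 tested sterol synthesis enzymes in the order of the pathway, 1 point per tumor. Names in bold are the 5 enzymes among the 7 genes, and the dotted lines mark 2-fold. No gene reaches them. Tumor 1 lies above 0 for 13 of the 16, against 43.7% of all genes. Tumor 4 lies below 0 for 13 and above 0 for 3, where 50.8% of all genes lie above.

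Among regulators of SREBP, 8 of 10 listed genes passed the filter. Their largest difference in any tumor was that of Srebf1 in tumor 1. Srebf1, which encodes SREBP1, the isoform known mainly for fatty acid genes, was lowest in tumor 1, where 6 of the 7 genes were highest. It read 9.82 there and averaged 10.79 ± 0.06 over the rest (SD, n = 3), a difference of -0.97 (SE 0.17, limma adjusted p = 0.0511), just short of both thresholds. Scap, the escort of both SREBPs, read 7.77, 7.79, 7.96 and 8.10 in tumors 1, 2, 4 and 5. Erlin1 and Erlin2, membrane proteins of the endoplasmic reticulum that act in protein breakdown, had SDs of 0.10 and 0.11. The median difference of the list lay between -0.06 in tumors 1 and 4 and 0.07 in tumor 2.

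Of 13 genes of sterol uptake and transport inside the cell, 10 had a probe set, 8 passed the filter and 0 passed the limma test in any tumor. Of their 15 probe sets, the largest differences in tumor 1 were 0.83 in 1435893_at of Vldlr and -0.67 in 1416050_a_at of Scarb1. The largest in tumor 2 was 0.61 in 1437378_x_at of Scarb1. Lrp1, an endocytic receptor that takes up ApoE particles, read 6.38, 6.34, 6.60 and 5.94 in tumors 1, 2, 4 and 5. Scarb1, the HDL receptor, read 6.85, 7.20, 6.89 and 6.77, Mylip, a ubiquitin ligase that acts on lipoprotein receptors, 7.15, 6.92, 7.13 and 6.63, and Npc2, which hands cholesterol out of lysosomes, 10.38, 10.29, 10.56 and 10.83. Of the 8 genes, 1 was lowest in tumor 4, against 17.3% of all genes. It was Stard4, a cytosolic sterol carrier gene at 7.81 there and 7.99 to 8.10 in the others. The medians of the list lay between -0.14 in tumor 5 and 0.05 in tumor 1.

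Of the 4 genes of sterol export and turnover that passed the filter, from 11 listed, 3 were highest in tumor 4, where 19% of all genes were highest. Their median difference there was 0.44, and the largest difference of the 4 genes in any tumor was 0.55, for Abca1 in tumor 4. Abca1, the cholesterol exporter, read 9.53 in tumor 4 and 8.99 ± 0.18 over the rest (SD, n = 3), Abcg1, a partner exporter, 8.17 and 7.70 ± 0.20, and Apoe, the main lipid carrier of the brain, 11.69 and 11.28 ± 0.29 (limma adjusted p = 1 for each). Tumor 5, at 11.61, stood close to tumor 4 for Apoe. The sum of the microglia and macrophage markers, cells that also express these 3 genes, was highest in tumor 4 too, and its part was not tested. The fourth gene, Cyp7b1, an oxysterol hydroxylase, was highest in tumor 5, at 7.94, and read 7.66 in tumor 4.

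The Hedgehog genes were set beside the sterol genes because sterols act on Smoothened. Of 14 listed genes, 8 passed the filter and 0 of 8 the limma test in any tumor. An unadjusted p under 0.05 was found for 5 of their 12 probe sets in tumor 1, against 10.87% of all, and for 1, 0 and 1 in tumors 2, 4 and 5, against 6.3%, 0.61% and 3.55% of all. Smo, which encodes Smoothened, read 8.64 in tumor 1 and 9.02 ± 0.09 over the rest (SD, n = 3; difference -0.38, limma adjusted p = 0.433), and its second probe set, 1427048_at, was lowest in tumor 1 as well. Gli1, the transcription factor that reports pathway activity, read 7.11, 7.80, 7.30 and 7.53 in tumors 1, 2, 4 and 5, Gli2 8.93, 9.73, 9.11 and 9.01, and the receptor gene Ptch1 10.98, 11.12, 11.19 and 11.27. In tumor 1, where all 7 sterol genes lay above the others' mean, 6 of the 8 Hedgehog genes were the lowest of the 4, as were 31.3% of all genes. The sum of the proliferation markers was also lowest in tumor 1. The progenitor markers were divided. Atoh1 (9.92 against 10.54 to 10.90), Barhl1 and Mycn were lowest in tumor 1. Pax6 (9.78 against 8.26 to 8.82) and Zic2 (9.64 against 9.17 to 9.52) were highest there, and Zic1 was neither. Their sum in tumor 1 was 8300, against 8230 to 9140 in the others. The part of these markers was not tested. Of the 8 tested Hedgehog genes, those not lowest in tumor 1 were Sufu, a negative regulator at 8.06, 8.14, 7.82 and 8.08, and Hhip. Hhip, a Hedgehog-binding inhibitor and target, read 6.72, 6.08, 5.68 and 6.06, highest in tumor 1 and lowest in tumor 4. Among genes under the filter, Gli3 (5.70 and 5.81) and Cdon (5.36) exceeded the floor only in tumor 1. Kif7 was neither highest nor lowest there, Disp1 exceeded the floor only in tumor 5, and Shh lay below it in every tumor. These were not tested. Gas1, a coreceptor, read 9.56, 9.72, 10.05 and 10.43.

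**Figure D4:**
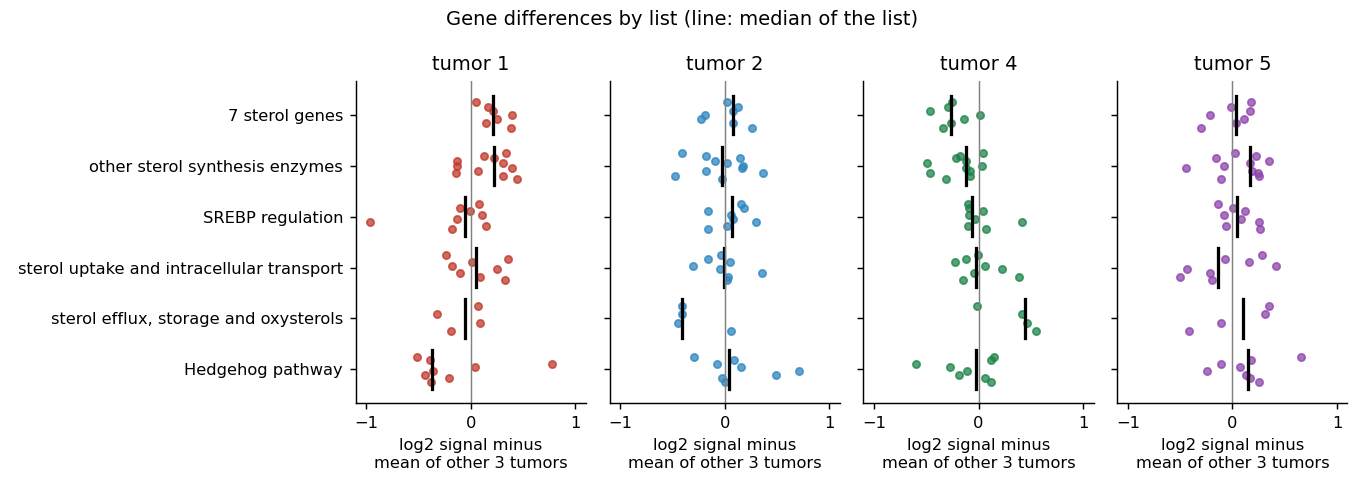
Difference of each tumor from the mean of the other 3 (log2 signal) for every tested gene of the 7 sterol genes and of the 5 other lists, 1 point per gene, with the list median as a black line. The 7 sterol genes have medians of 0.21 in tumor 1 and -0.26 in tumor 4, the export and turnover genes 0.44 in tumor 4 and the Hedgehog genes -0.37 in tumor 1.

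The genes outside all lists whose profile over the 4 tumors lay nearest to the mean profile of the 7 were Lpin1, Qsox1, Snx30, Dlg1 and Casd1, with root mean square differences between 0.0086 and 0.02 on the log2 scale. Lpin1, a phosphatidate phosphatase of lipid synthesis, read 6.71, 6.57, 6.36 and 6.56 in tumors 1, 2, 4 and 5. Qsox1 encodes a sulfhydryl oxidase, Snx30 a sorting nexin, Dlg1 a membrane scaffold protein and Casd1 a sialic acid acetyltransferase. Among the 7, Sqle lay nearest to their mean profile, at 0.04, and Dhcr7 and Hmgcs1 farthest, at 0.16. Of 8398 other genes, 32 lay nearer than Sqle.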

How the data were processed

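The authors deposited a log2 signal for each probe set and array, made with MAS5 per the submitters' processing notes. MAS5 treats every array separately and does not align the arrays' distributions, and its low signals are noisy. The MAS5 version is not stated in the labels. The table used here held 29304 probe sets and no detection calls. Platform annotation named 1 gene for 24679 of them, several for 647 and none for 3917, beside 61 controls. RefSeq's GRCm38.p6 table held 24601 of the 24679 by gene identifier.

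Signals were raised to a floor, the median over arrays of their 40th percentile (5.12). Only probe sets whose mean reached the median of all means (5.88) were tested, 13510 with 1 symbol, for 8488 genes. Each tumor was set against the rest with limma 3.58.1 (R 4.3.3; lmFit, eBayes with an intensity trend, Benjamini-Hochberg over all 13510). Lists use each gene's brightest probe set. Nothing in the labels says whether the tumors share a litter or batch, so p-values measure only the spread between these 4 tumors.

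The 7 genes and all lists were chosen with earlier results of these data known. Named were all 7 genes, of each other list every gene that passed and the 4 with the largest SD over the tumors, Scap, Smo, Ptch1 and Gli1, and the 5 genes nearest in profile. Sufu, Stard4, Sc5d, Vldlr and the single cell type markers were named after their values were seen. Alternatives were the floor, the filter, quantile normalization, median centring, 1 probe set per gene, probe set suffixes, the trend and leaving out each tumor.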

Additional observations from a re-analysis of the deposited data

Results flagged for a closer look

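In each of the 112 probe sets of the 7 genes and the other lists, the gap between the highest or lowest tumor and its neighbour was compared with the whole range of the 4. Chance puts about 5% of such groups above the critical value of this gap share (Dixon). It was exceeded by 0 of the 14 probe sets of the 7 sterol genes and by 7 of the 112. All 7 were among the 68 of the 112 that passed the filter on the mean. The share above the critical value over all probe sets of the array was not counted.

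Tumor 1 stood alone in 5 of these 7. It was also the only tumor in which any probe set of the array passed the limma test (119). How often tumor 1 stood alone by this gap over the whole array was not counted. Srebf1 read 9.82 in tumor 1 and 10.74 to 10.85 in the others. The coreceptor genes Boc (1426869_at) and Gas1 (1448494_at) read 7.84 against 8.19 to 8.26 and 8.20 against 8.59 to 8.62. Vldlr, a lipoprotein receptor gene, read 6.73 in 1435893_at against 5.84 to 5.98, and Stard3, a late endosomal sterol carrier gene, 7.23 against 6.85 to 6.91. Nsdhl, a sterol synthesis enzyme gene, read 7.88 in tumor 5 against 7.51 to 7.55. Insig2, the second INSIG gene, read 7.12 in tumor 2 in 1417982_at against 7.28 to 7.31. Its other tested probe sets did not have tumor 2 lowest. There 1417981_at read 7.49 in tumor 2 against 7.39 to 7.58, and 1417980_a_at 7.21 against 6.99 to 7.48. These genes were named because of this comparison.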

How the results depend on the processing

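No paired analysis was possible because the labels give a single group. The count of probe sets of the 7 genes passing the limma test was 0 in every tumor under the 9 settings other than a left-out tumor, and between 0 and 1 in tumor 1 with a tumor left out. The 1 was 1422533_at of Cyp51 without tumor 2 (difference 1.05). Of 536 differences of single probe sets recomputed, 535 kept their side of the threshold and 18 turned sign, none of which had passed. Only a left-out tumor, quantile normalization and median centring changed the differences of single probe sets. The other settings left them exactly as they were and could not turn a sign, so they say nothing about stability. Over 8 settings, the mean difference of the 7 genes lay between 0.20 and 0.32 in tumor 1 and -0.30 and -0.21 in tumor 4. It lay between -0.01 and 0.06 in tumor 2 and -0.06 and 0.02 in tumor 5. The other floors and the lack of a filter left this mean exactly as it was, so they say nothing about its stability. With a tumor left out the ranges were 0.17 to 0.27, -0.28 to -0.19, -0.07 to 0.11 and -0.10 to 0.08, so the sign in tumors 2 and 5 was not stable. Chosen after seeing the data, the ranks were repeated with a tumor left out and with other scalings. Tumor 1 was then highest in 9 to 11 of 12 probe sets (21.3% to 35.4% of all) and tumor 4 lowest in 9 to 11 (13.8% to 31.8%). Over all probe sets, the 119 passing in tumor 1 became 301 without tumor 2, 280 without tumor 5, 45 with the floor at the 50th percentile and 39 with the filter at the 75th. Without tumor 1, 92 passed in tumor 2 and 82 in tumor 5, against 0 in each with it. Without tumor 5, 1 passed in tumor 4, without tumor 4, 1 passed in tumor 5, and without a filter 3, 9 and 10 passed in tumors 2, 4 and 5.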
